A study of Homo sapiens with 24 samples.

Results

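Retinoic acid synthesis and signalling genes were followed on all 24 expression arrays of the series, as every probe annotated to ALDH1A1, ALDH1A2, ALDH1A3, CRABP1, CRABP2, RARA, RARB, RARG and DHRS3. The annotation held 15 probes for 8 of these 9 genes among the 47231 probes on the array, which cover 20046 annotated genes, and it held no probe for CRABP1. The gene group was chosen by earlier results on these arrays, namely the levels of ALDH1A3 on arrays labelled T24 and of CRABP2 on arrays labelled HCT116. Those values are therefore given as a description with no test. The arrays were labelled T24, a bladder carcinoma cell line, HL-60, a promyelocytic leukemia cell line, and HCT116, a colorectal carcinoma cell line. Each cell line had 4 conditions with 2 arrays each: the combinatorial treatment (labelled Combination), 5-Aza-CdR alone (labelled AZA), clorgyline alone, and untreated control. The cytidine analog 5-Aza-CdR binds DNA methyltransferases covalently once it is built into DNA. T24 received 1 µM of it, HL-60 0.1 µM and HCT116 0.3 µM, each over 24 hours. Clorgyline, used at 10 µM, blocks monoamine oxidases and the histone demethylase LSD1. RNA was taken at day 18 from T24 and HL-60 and at day 20 from HCT116. Nothing states that the 2 arrays of a condition came from separate cultures. The p values therefore reflect only how far these arrays lie apart, which may be technical.

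Retinoic acid is made from vitamin A in steps. Retinol is oxidized to retinaldehyde by retinol dehydrogenases, DHRS3 reduces retinaldehyde back to retinol, and the retinaldehyde dehydrogenases ALDH1A1, ALDH1A2 and ALDH1A3 oxidize retinaldehyde to retinoic acid irreversibly. CRABP1 and CRABP2 bind retinoic acid in the cytoplasm, and CRABP2 carries it to the nucleus. There it binds the retinoic acid receptors RARA, RARB and RARG, which sit on DNA as heterodimers with retinoid X receptors and regulate transcription through direct repeats of a short half-site. RARA is also known as the partner of the fusion protein of acute promyelocytic leukemia, and HL-60 cells mature toward granulocytes when given retinoic acid.

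The values are log2 levels, and each was set beside a background limit, the 95th percentile of 437 olfactory receptor probes of the same cell line. The limit was 8.10 on arrays labelled T24, 7.58 on HL-60 and 7.71 on HCT116. A probe near the limit cannot show a fall, and changes of dim probes can be compressed. Calls were made in limma by the limits of the methods, a fold change over 2 and a p under 0.01, and separately by a Benjamini-Hochberg adjusted p under 0.05 over all probes of the cell line. The comparisons of a cell line with control share its control arrays. Replicate arrays correlated across probes at 0.988 to 0.997, except the HCT116 control arrays, which correlated at 0.966. Fewer expressing cells and less RNA per cell cannot be told apart in these bulk RNA values.

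Some arrays went against their labels. EPCAM, an adhesion molecule of colorectal carcinoma and other epithelial cells, had log2 levels of 11.91 to 12.57 on the 6 treated arrays labelled HCT116, against 7.84 and 7.88 on the HCT116 control arrays, which is close to background. EPCAM was also high on the arrays labelled T24, at 12.54 to 12.95 with treatment and at 12.67 and 12.62 in control. EPCAM was the 1 of 12 intestinal epithelium markers over 1 log2 unit above the limit there, and likewise on treated arrays labelled HCT116. On the HCT116 control arrays 0 of 12 were. ELF3 and TSPAN8 of that list ran the other way, averaging 8.06 and 7.77 on treated arrays labelled HCT116, against 8.37 and 7.92 on the HCT116 control arrays. Of 7 measured mesenchymal markers, 4 were over 1 log2 unit above the limit on treated arrays labelled HCT116, against 6 on the HCT116 control arrays, and the summed heights were 8.65 to 10.2 and 21.7 to 22.5. The treated arrays labelled HCT116 correlated with arrays labelled T24 at a median of 0.985 and with the HCT116 control arrays at a median of 0.907. At most 1 of 7 urothelial markers was over 1 log2 unit above the limit on any set of arrays. HL-60 arrays carried their lineage markers, with 8 of 9 granulocyte precursor markers over 1 log2 unit above the limit with treatment and 6 of 9 in control. On arrays labelled HCT116, treatment and cell line cannot be told apart against control. The comparison between 5-Aza-CdR and clorgyline does not use those control arrays for its group means. The cell line behind the arrays labelled T24 is in doubt as well, so T24 and HCT116 are used below only as names of labels.

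Most members were at or near background. ALDH1A1, ALDH1A2, RARB and RARG, with 8 probes in all, ranged from 7.95 to 8.18 on arrays labelled T24, from 7.16 to 7.76 on HL-60 and from 7.51 to 7.80 on HCT116. None of these 8 probes was called by limma in any comparison of any cell line, and 4 of 120 tests had an unadjusted p under 0.05. For all probes, the share at that unadjusted limit was not computed. The probes over 0.5 log2 units above the limit in some condition were 5 on arrays labelled T24, 1 on HL-60 and 5 on HCT116. In T24 and HCT116 these were both ALDH1A3 probes and the probes of CRABP2, DHRS3 and 1 of 3 RARA probes. In HL-60 it was that RARA probe alone. The other RARA probes, ILMN_1677197 and ILMN_1791902, stayed near the limit on all arrays.

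**Figure D1:**
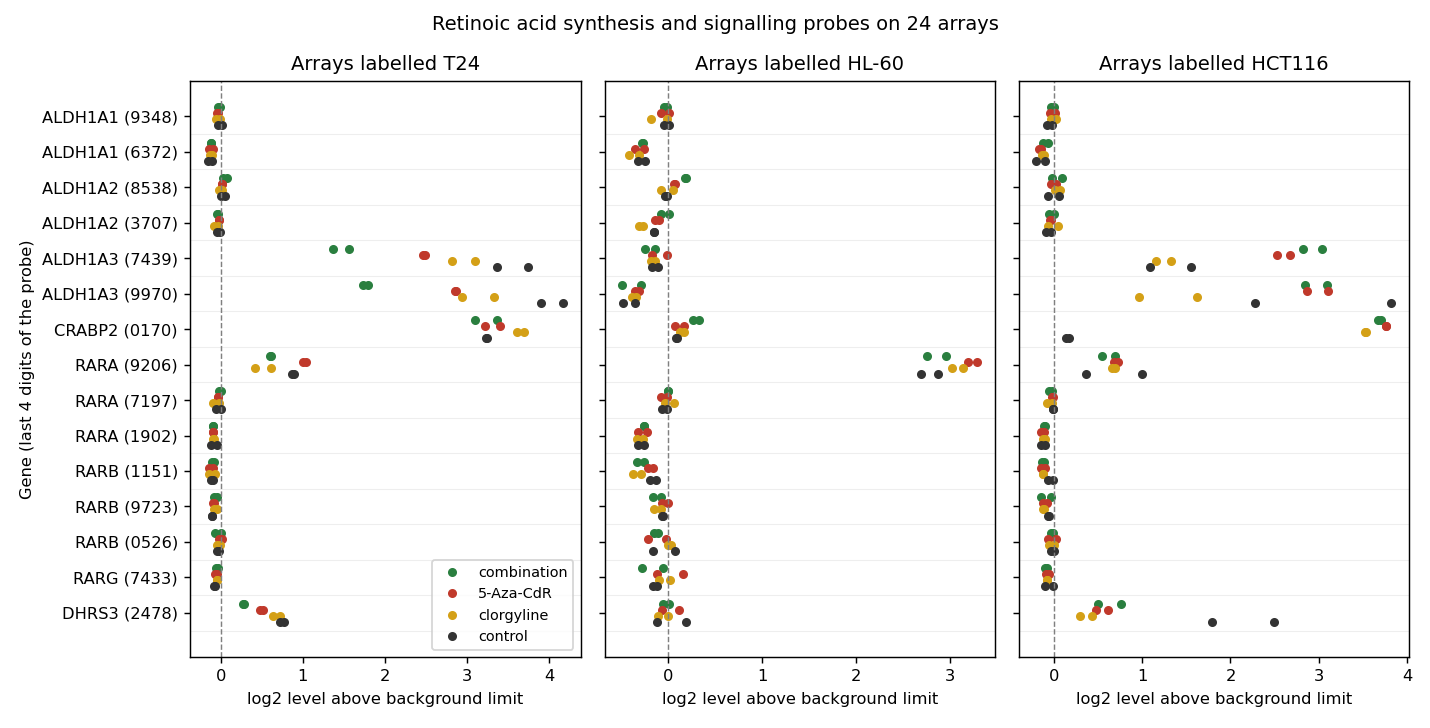
Log2 level of each of the 15 probes above the background limit of its cell line (dashed line at 0), with a point per array, coloured by treatment, and a panel per labelled cell line. ALDH1A3, CRABP2, DHRS3 and a RARA probe stand above the limit on arrays labelled T24 and HCT116, RARA alone does so clearly on HL-60, and the other probes lie along the line.

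ALDH1A3, the retinaldehyde dehydrogenase of this group that was well above background, was lowest on T24 arrays with the combinatorial treatment. By probe ILMN_1807439, its log2 levels were 9.48 and 9.66 with the combinatorial treatment, 10.56 and 10.59 after 5-Aza-CdR and 10.91 and 11.20 after clorgyline, against 11.47 and 11.84 in control. By probe ILMN_2139970, they were 9.84 and 9.90 with the combinatorial treatment, 10.97 and 10.95 after 5-Aza-CdR and 11.04 and 11.42 after clorgyline, against 12.27 and 12.01 in control. The 4 conditions did not overlap by either probe, and the order was the same by both. The log2 difference from control was -2.08 and -2.27 with the combinatorial treatment, -1.08 and -1.18 after 5-Aza-CdR, and -0.60 and -0.90 after clorgyline (SE 0.15 and 0.14 for the 2 probes). The combinatorial treatment was lower than 5-Aza-CdR by a log2 difference of -1.01 and -1.09. The excess over additivity, which is the combined change minus the sum of both single changes, was -0.41 and -0.19. These T24 values chose the gene group, so no test is given.

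The window from 250 bases before to 50 bases after the RefSeq start of ALDH1A3 is shown because DNA methylation, which 5-Aza-CdR lowers, falls on CpG sites. It lies at chr15:100879581-100879880 on the plus strand of GRCh38.p14 and holds 46 CpG sites. Of 35116 RefSeq windows of the same length, whose median is 14, 97.6% held that many or fewer. The CpG sites are in capitals.
ALDH1A3: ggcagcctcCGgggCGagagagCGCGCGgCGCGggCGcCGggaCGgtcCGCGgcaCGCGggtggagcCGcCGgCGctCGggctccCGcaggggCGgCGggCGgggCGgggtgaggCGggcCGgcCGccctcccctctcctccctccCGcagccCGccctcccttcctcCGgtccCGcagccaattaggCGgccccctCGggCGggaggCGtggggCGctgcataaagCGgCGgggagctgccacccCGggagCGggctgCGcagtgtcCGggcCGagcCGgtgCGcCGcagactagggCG
DNA methylation at these sites was not analysed here.

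**Figure D2:**
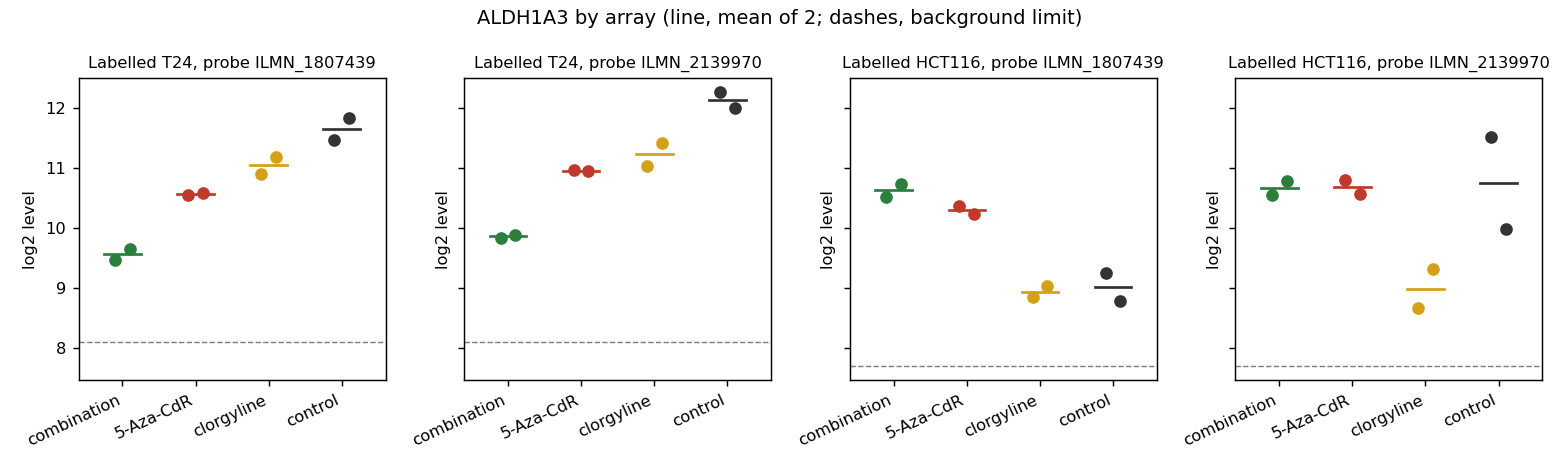
Log2 level of ALDH1A3 by probe and array on arrays labelled T24 and HCT116, with conditions along the x axis, a point per array, a line at the mean of 2 and dashes at the background limit. On T24 arrays both probes are lowest with the combinatorial treatment, and on HCT116 arrays both are lower after clorgyline than after 5-Aza-CdR.

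DHRS3, which limits retinoic acid synthesis by returning retinaldehyde to retinol, was lower with the combinatorial treatment on arrays labelled T24. Its log2 levels were 8.39 and 8.37 with the combinatorial treatment, 8.62 and 8.58 after 5-Aza-CdR and 8.83 and 8.75 after clorgyline, against 8.83 and 8.88 in control. All 4 arrays given 5-Aza-CdR, alone or in combination, were below both control arrays. With the combinatorial treatment DHRS3 fell by a log2 difference of -0.47 (SE 0.036, limma adjusted p = 0.00246). The difference was -0.26 after 5-Aza-CdR (limma adjusted p = 0.12), -0.07 after clorgyline (limma adjusted p = 0.634) and -0.22 for the combinatorial treatment against 5-Aza-CdR (limma adjusted p = 0.0541). With all 24 arrays in a single fit, the adjusted p of the combinatorial treatment was 0.275. The DHRS3 level lay 0.28 to 0.75 log2 units above the background limit, where changes can be compressed.

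The DHRS3 window with the most CpG sites of its 3 RefSeq starts is at chr1:12618161-12618460 on the minus strand of GRCh38.p14. The windows of its other starts hold 5 and 13 CpG sites, under the median of 14 over all windows. DNA methylation was not analysed at any of them. The window shown holds 31 CpG sites, in capitals. It is set beside the ALDH1A3 window because both genes were lower with the combinatorial treatment on arrays labelled T24.
DHRS3: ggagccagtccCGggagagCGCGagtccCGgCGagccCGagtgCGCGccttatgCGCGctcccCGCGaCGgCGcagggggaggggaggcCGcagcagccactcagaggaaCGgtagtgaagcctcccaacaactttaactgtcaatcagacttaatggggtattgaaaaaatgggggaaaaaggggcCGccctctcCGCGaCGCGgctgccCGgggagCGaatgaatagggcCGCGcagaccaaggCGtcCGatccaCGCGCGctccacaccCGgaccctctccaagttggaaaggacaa

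RARA, the broadly expressed retinoic acid receptor, was measured by a single bright probe. On arrays labelled T24, its log2 levels by probe ILMN_1659206 were 8.70 and 8.71 with the combinatorial treatment, 9.14 and 9.10 after 5-Aza-CdR and 8.52 and 8.72 after clorgyline, against 8.99 and 8.97 in control. The arrays given clorgyline, alone or in combination, were below both control arrays. RARA fell by a log2 difference of -0.42 with the combinatorial treatment against 5-Aza-CdR (SE 0.061, limma adjusted p = 0.0391). That limma adjusted p was above 0.05 in 9 of 14 alternatives, and it was 0.351 with all 24 arrays in a single fit. With an array left out, the log2 difference was -0.44 to -0.40. Against control, the log2 difference was -0.28 with the combinatorial treatment (limma adjusted p = 0.0823), 0.14 after 5-Aza-CdR (limma adjusted p = 0.679) and -0.36 after clorgyline (limma adjusted p = 0.0836).

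On HL-60 arrays RARA was well above background. Its log2 levels were 10.54 and 10.33 with the combinatorial treatment, 10.86 and 10.76 after 5-Aza-CdR and 10.60 and 10.71 after clorgyline, against 10.45 and 10.27 in control. The 5-Aza-CdR and clorgyline arrays were all above both control arrays, while the combinatorial arrays overlapped with control. RARA rose by 0.45 after 5-Aza-CdR (SE 0.101, limma adjusted p = 0.0176). The adjusted p was 0.147 without control replicate 2, 0.0956 without 5-Aza-CdR replicate 1 and 0.0515 without 5-Aza-CdR replicate 2. The log2 difference from control was 0.30 after clorgyline (limma adjusted p = 0.30) and 0.08 with the combinatorial treatment (limma adjusted p = 0.804). The excess over additivity was -0.67 (SE 0.143, limma adjusted p = 0.14).

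The clorgyline response of RARA was tested between the cell lines. The log2 difference from control was 0.30 in HL-60 and -0.36 in T24, and HL-60 minus T24 was 0.66 (SE 0.121, limma adjusted p = 0.0183). Across all probes, 1.52% passed an adjusted p of 0.05 for the difference in clorgyline response, 8.59% for the combinatorial treatment and 3.95% for 5-Aza-CdR. For RARA the difference between cell lines was 0.35 with the combinatorial treatment (limma adjusted p = 0.104) and 0.31 after 5-Aza-CdR (limma adjusted p = 0.222). The 5-Aza-CdR dose was not the same in both cell lines. The clorgyline difference lost its adjusted p under 0.05 in 6 of 20 alternatives, where the highest was 0.117.

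**Figure D3:**
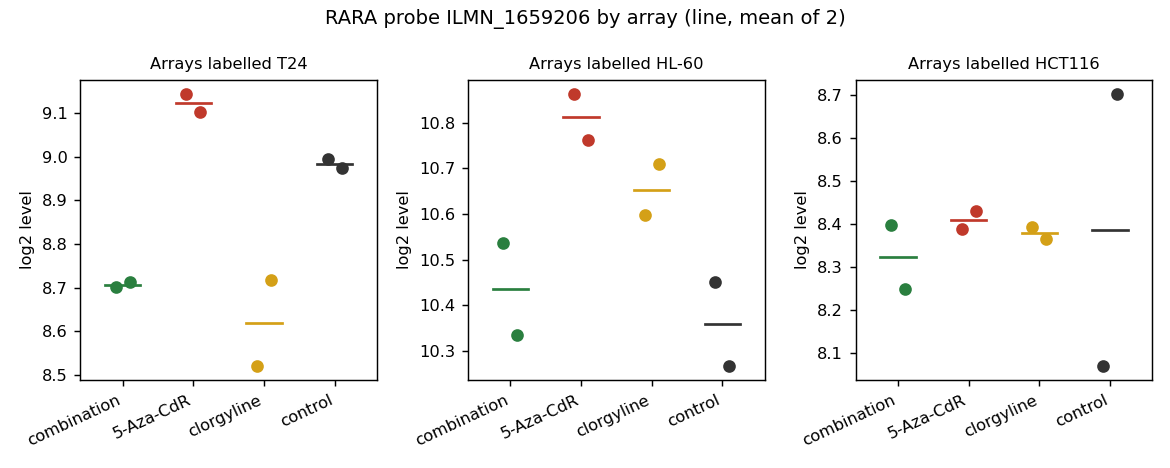
Log2 level of RARA probe ILMN_1659206 by array, with conditions along the x axis, a panel per labelled cell line with its own y axis, a point per array and a line at the mean of 2. Clorgyline arrays lie below control on arrays labelled T24 and above control on HL-60, and the HCT116 control arrays lie on both sides of the treated arrays.

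CRABP2, the binding protein that delivers retinoic acid to the receptors, was bright on arrays labelled T24 and close to background on HL-60. On arrays labelled T24 its log2 levels were 11.20 and 11.47 with the combinatorial treatment, 11.50 and 11.32 after 5-Aza-CdR and 11.71 and 11.79 after clorgyline, against 11.33 and 11.35 in control. The clorgyline arrays were above all others, and the remaining conditions overlapped. The log2 difference after clorgyline was 0.41 (SE 0.096, limma adjusted p = 0.188). On HL-60 arrays CRABP2 was at 7.85 and 7.91 with the combinatorial treatment, against 7.68 and 7.66 in control (log2 difference 0.21, limma adjusted p = 0.163).

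On arrays labelled HCT116, CRABP2 separated control from every treatment. Its log2 levels were 11.42 and 11.38 with the combinatorial treatment, 11.47 and 11.46 after 5-Aza-CdR and 11.23 and 11.25 after clorgyline, against 7.88 and 7.84 in control. The treated levels lay within the range of the arrays labelled T24, which were normalized separately, and the control levels were 0.16 log2 units above the background limit on average. The log2 difference from control was 3.54, 3.61 and 3.38 for the combinatorial treatment, 5-Aza-CdR and clorgyline in that order. EPCAM moved with CRABP2 across these 8 arrays, and the part of cell line identity in the CRABP2 difference cannot be told apart from treatment. The CRABP2 window is at chr1:156705735-156706034 on the minus strand of GRCh38.p14. It holds 20 CpG sites, in capitals, and is shown because this gene had the widest range of group means among the members.
CRABP2: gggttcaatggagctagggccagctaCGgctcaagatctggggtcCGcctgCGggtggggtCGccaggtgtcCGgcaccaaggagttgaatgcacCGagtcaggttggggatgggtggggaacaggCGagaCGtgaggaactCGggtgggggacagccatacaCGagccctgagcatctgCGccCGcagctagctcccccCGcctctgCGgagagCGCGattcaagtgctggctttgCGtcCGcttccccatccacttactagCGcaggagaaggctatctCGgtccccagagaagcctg

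DHRS3 ran the other way on arrays labelled HCT116. Its log2 levels were 8.47 and 8.21 with the combinatorial treatment, 8.32 and 8.18 after 5-Aza-CdR and 8.004 and 8.13 after clorgyline, against 10.19 and 9.49 in control. All 6 treated arrays were below both control arrays. DHRS3 fell by a log2 difference of -1.51 with the combinatorial treatment (SE 0.227, limma adjusted p = 0.0123), -1.60 after 5-Aza-CdR (limma adjusted p = 0.00936) and -1.78 after clorgyline (limma adjusted p = 0.00687). The 3 comparisons share their control arrays, which stood apart from the treated arrays of that label. The highest adjusted p over the alternatives was 0.104, 0.0706 and 0.0605 in the same order. These came without 1 of the treated arrays or from a fit of the compared groups alone.

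ALDH1A3 on arrays labelled HCT116 depended on the probe when set against control. By probe ILMN_1807439 its log2 levels were 10.53 and 10.74 with the combinatorial treatment, 10.38 and 10.23 after 5-Aza-CdR and 8.86 and 9.03 after clorgyline, against 9.25 and 8.79 in control. By probe ILMN_2139970 they were 10.55 and 10.79 with the combinatorial treatment, 10.81 and 10.57 after 5-Aza-CdR and 8.67 and 9.32 after clorgyline, against 11.53 and 9.98 in control. By the first probe the control arrays lay beside the clorgyline arrays. By the second, 1 control array was above all treated arrays and the other lay between the clorgyline arrays and the rest. Both probes were higher after 5-Aza-CdR than after clorgyline. That log2 difference was 1.36 by the first probe (SE 0.164, limma adjusted p = 0.0483) and 1.70 by the second (SE 0.501, limma adjusted p = 0.436). The first probe lost its adjusted p under 0.05 in 7 of 15 alternatives, where it reached 0.382. Without both control arrays, an alternative chosen after seeing the data, the adjusted p was 0.0124 by the first probe and 0.0644 by the second. On arrays labelled T24 the order was the other way, with log2 differences of -0.48 and -0.27 for 5-Aza-CdR minus clorgyline.

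RARA on arrays labelled HCT116 was at 8.40 and 8.25 with the combinatorial treatment, 8.39 and 8.43 after 5-Aza-CdR and 8.39 and 8.37 after clorgyline, against 8.07 and 8.70 in control. The control arrays enclosed all treated arrays, so no direction could be read.

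**Figure D4:**
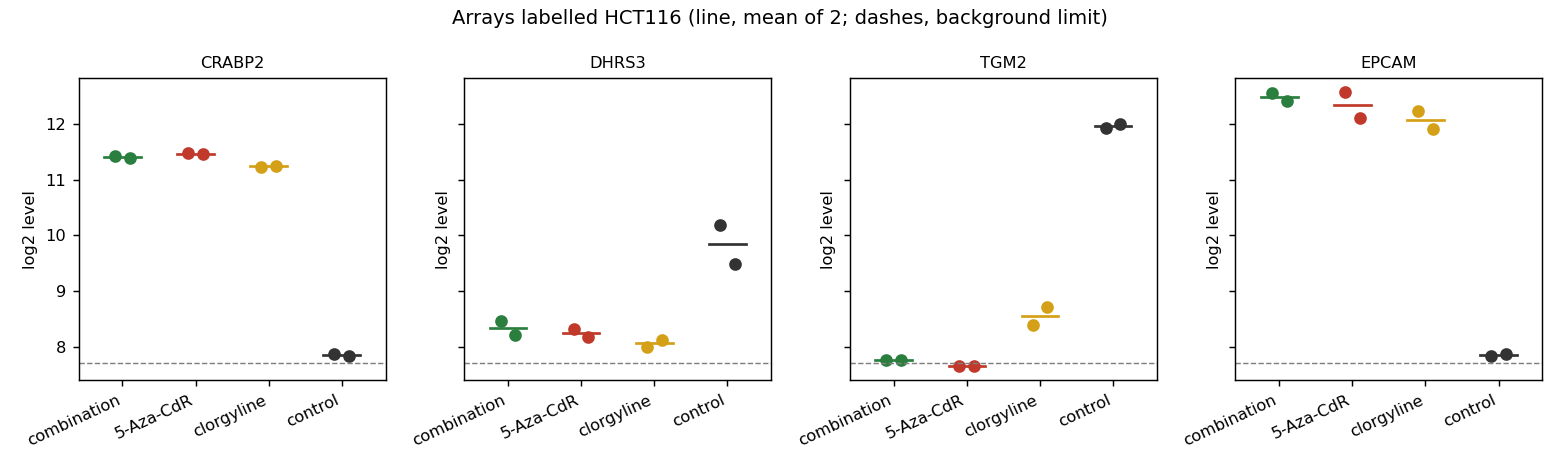
Log2 levels of CRABP2, DHRS3, the retinoic acid target TGM2 and the epithelial marker EPCAM on arrays labelled HCT116, with conditions along the x axis, a point per array, a line at the mean of 2 and dashes at the background limit. CRABP2 and EPCAM are near background on the control arrays alone, while DHRS3 and TGM2 are highest there.

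Counts are given without the values that chose the gene group. On arrays labelled T24, none of the 13 probes other than ALDH1A3 was called in limma by the limits of the methods. The share of all probes called was 0.282% with the combinatorial treatment, 0.0699% after 5-Aza-CdR, 0.0487% after clorgyline, 0.188% with the combinatorial treatment against 5-Aza-CdR and 0.214% for the excess over additivity. At an unadjusted p under 0.05 there was 1 of the 13 after 5-Aza-CdR and 2 in each of the other comparisons. Those counts are not read as a result, because the share of all probes at that unadjusted limit was not computed. At an adjusted p under 0.05, DHRS3 was called down with the combinatorial treatment (3.09% of all probes), and RARA was called down with the combinatorial treatment against 5-Aza-CdR (1.43%). None passed after 5-Aza-CdR (0.119%), after clorgyline (0.373%) or for the excess (0.375%). The median log2 difference of the 15 probes with the combinatorial treatment was -0.0067, beside -0.0029 over all probes.

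On HL-60 arrays none of the 15 probes was called by the limits of the methods by limma. The share of all probes was 1.1% with the combinatorial treatment, 0.8% after 5-Aza-CdR, 0.123% after clorgyline, 0.0699% with the combinatorial treatment against 5-Aza-CdR and 0.104% for the excess. At an unadjusted p under 0.05 there were 2 member probes with the combinatorial treatment and 1 in each of the other comparisons. The share of all probes at that unadjusted limit was not computed, so these counts are not read as a result. At an adjusted p under 0.05, RARA was called up after 5-Aza-CdR (6.68% of all probes). None was called with the combinatorial treatment (10.9%), after clorgyline (0.711%), with the combinatorial treatment against 5-Aza-CdR (2.39%) or for the excess (0.169%). That single call is 6.67% of the 15 probes, close to the share of all probes.

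On arrays labelled HCT116, 2 of the 14 probes other than CRABP2 were called with the combinatorial treatment (2.62% of all probes) and 2 after 5-Aza-CdR (2.79%), in both cases ALDH1A3 probe ILMN_1807439 up and DHRS3 down. After clorgyline (2.49%), DHRS3 was called down. None was called by limma with the combinatorial treatment against 5-Aza-CdR (0.00635%), and none had an unadjusted p under 0.05 there, a limit at which the share of all probes was not computed. Between 5-Aza-CdR and clorgyline, ALDH1A3 probe ILMN_1807439 was called up by the limits of the methods (0.176%) and at an adjusted p under 0.05 (0.407%).

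**Figure D5:**
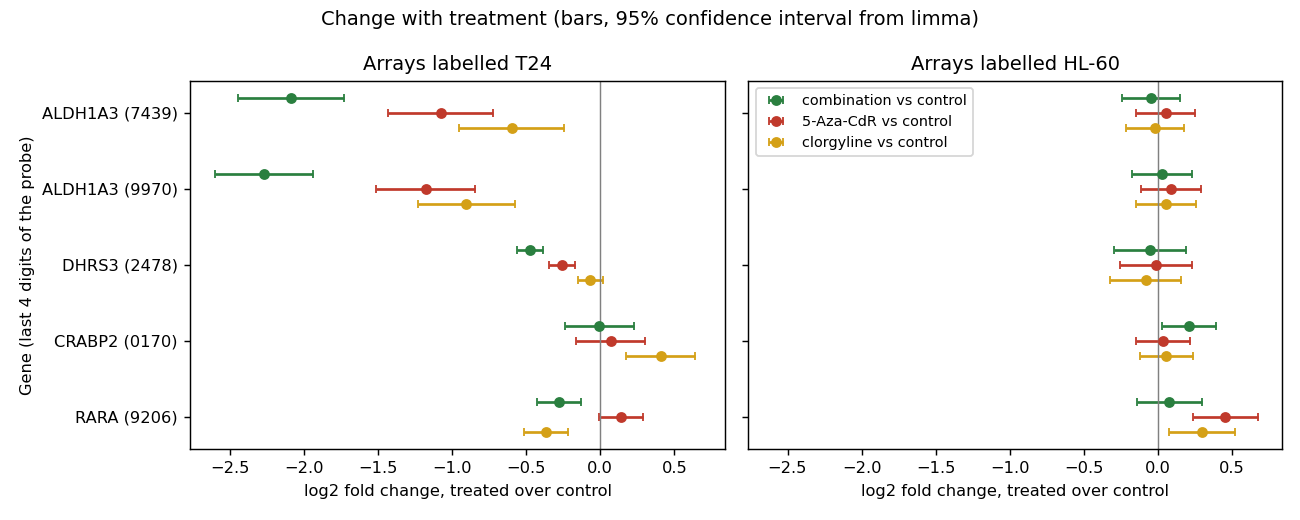
Log2 fold change of treated over control arrays for 5 probes on arrays labelled T24 and HL-60, on a common x axis, with points for the limma estimate and bars for its 95% confidence interval, coloured by treatment. On arrays labelled T24, the ALDH1A3 estimates lie below 0 with every treatment. Those values chose the gene group, so their bars are not read as a test. On HL-60 arrays, where ALDH1A3, DHRS3 and CRABP2 lie at or near background, the RARA interval after 5-Aza-CdR lies above 0.

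Around these genes, 73 of 84 further genes of the pathway were measured. Each was taken by its brightest probe in the cell line. The shares set beside their counts run over all probes, also dim and unannotated ones, so the sets are not alike. They cover retinol uptake and storage, oxidoreductases of retinol and retinaldehyde, retinoic acid breakdown, receptors and co-regulators, and retinoic acid target genes. On arrays labelled T24, none was called with the combinatorial treatment by the limits of the methods in limma. At an adjusted p under 0.05, 3 rose and 1 fell, where 3.09% of all probes passed. All but BHLHE40 are named here after their values were seen. RDH10, which oxidizes retinol to retinaldehyde, was at 9.76 and 9.504 with the combinatorial treatment, against 9.07 and 8.89 in control (log2 difference 0.65, SE 0.097, limma adjusted p = 0.0256). RETSAT, which saturates retinol, rose by 0.23 (limma adjusted p = 0.0153), from a mean of 8.51 in control to 8.74. AKR1C3, a reductase, rose by 0.18 (limma adjusted p = 0.0423), from 8.12 in control to 8.30. The AKR1C3 levels lay near the background limit of 8.10. BHLHE40, a transcription factor induced by retinoic acid, fell by a log2 difference of -0.99 (limma adjusted p = 0.0288) and was called down after clorgyline at -1.11 (limma adjusted p = 0.0605). None of the 73 passed either rule after 5-Aza-CdR.

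On HL-60 arrays, 3 of the 73 genes were called up and 1 down with the combinatorial treatment, and 10 rose and 2 fell at an adjusted p under 0.05. Of all probes, 1.1% were called and 10.9% passed that adjusted p. BHLHE40 was at 10.98 and 11.04 with the combinatorial treatment, 11.65 and 11.44 after 5-Aza-CdR and 10.43 and 10.43 after clorgyline, against 9.46 and 9.42 in control. It rose by 1.57 with the combinatorial treatment (limma adjusted p = 5.14e-07), 2.11 after 5-Aza-CdR (limma adjusted p = 3.1e-08) and 0.99 after clorgyline (limma adjusted p = 0.000272), opposite to its direction with the combinatorial treatment on arrays labelled T24. DHRS4, a retinaldehyde reductase, rose by 1.01 with the combinatorial treatment (SE 0.109, limma adjusted p = 8.72e-05), and FABP5, which carries retinoic acid to another nuclear receptor, rose by 1.07 (limma adjusted p = 0.00356). TRIB3, a pseudokinase listed like BHLHE40 among the retinoic acid target genes, fell by -1.90 with the combinatorial treatment (limma adjusted p = 3.67e-06). After 5-Aza-CdR it fell by -1.57 (limma adjusted p = 2.58e-05).

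The receptor partners moved in opposite directions in HL-60. They and CEBPE were chosen after their values were seen. RXRA was at 11.93 and 11.95 with the combinatorial treatment, against 11.56 and 11.50 in control, and it rose by 0.41 (limma adjusted p = 0.00595). RXRB was at 9.88 and 10.48 with the combinatorial treatment, against 11.04 and 10.86 in control, and it fell by -0.77 (limma adjusted p = 0.00571). CEBPE, a transcription factor of granulocyte maturation and a retinoic acid target, was at 12.19 and 12.004 with the combinatorial treatment and 10.94 and 10.59 after clorgyline, against 11.29 and 11.56 in control. It rose by 0.67 with the combinatorial treatment (limma adjusted p = 0.00417) and fell by -0.66 after clorgyline (limma adjusted p = 0.0372).

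On arrays labelled HCT116, 6 of the 73 genes were called down and 1 up with the combinatorial treatment against control, 6 down and 1 up after 5-Aza-CdR, and 6 down and 2 up after clorgyline. The shares of all probes were 2.62%, 2.79% and 2.49% in that order. TGM2, a transglutaminase induced by retinoic acid, was at 7.77 and 7.76 with the combinatorial treatment, 7.65 and 7.66 after 5-Aza-CdR and 8.39 and 8.72 after clorgyline, against 11.93 and 11.99 in control. Also called down with the combinatorial treatment were the target genes RAI14, PLAAT4 and TIMP3. The control arrays carried mesenchymal markers, and the part of cell line identity in these values cannot be told apart from treatment. Between 5-Aza-CdR and clorgyline, TGM2 fell by a log2 difference of -0.90 (limma adjusted p = 0.0369), to background after 5-Aza-CdR, a size under the limits of the methods. Without both control arrays, an alternative chosen after seeing the data, the adjusted p from limma was 0.0413. On arrays labelled T24 the same difference was 0.94 (limma adjusted p = 0.0306).

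RARB, a receptor gene that retinoic acid induces through an element in its own promoter, was at or near the background limit on every array. The value farthest above its limit was 7.65 on an HL-60 control array, where the limit is 7.58. Among 17 RefSeq windows of the 9 genes, 1 held a direct repeat of the half-site cores GTTCA or GGTCA at a spacing of 5 bases. It was that of RARB at chr3:25428013-25428312 on the plus strand of GRCh38.p14. The spacing is counted between full half-sites, each a base longer than its core. Of 35116 windows of the same length, 0.174% held such a repeat on either strand and 0.159% one spaced by 2 bases, counted likewise. The repeat, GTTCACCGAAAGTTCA, starts 52 bases before the RefSeq start and is in capitals.
RARB: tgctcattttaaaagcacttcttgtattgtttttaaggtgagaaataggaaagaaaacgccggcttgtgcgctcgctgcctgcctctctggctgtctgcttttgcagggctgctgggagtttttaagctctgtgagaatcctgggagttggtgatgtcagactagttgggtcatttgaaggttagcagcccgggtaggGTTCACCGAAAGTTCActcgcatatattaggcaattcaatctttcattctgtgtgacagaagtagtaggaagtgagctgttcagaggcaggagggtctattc
A match is a description of these letters and not a measured site.

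The genes whose pattern was most like the member with the widest range of group means were named by Pearson's r over the 8 arrays of a cell line. For ALDH1A3 probe ILMN_2139970 on arrays labelled T24 these were PHGDH (0.948), PSAT1 (0.946) and SAT1 (0.936) of 136 candidate probes. PHGDH averaged 10.13 with the combinatorial treatment, 10.79 after 5-Aza-CdR and 10.98 after clorgyline, against 11.25 in control. For RARA on HL-60 they were TIPARP (0.894), SLC30A1 (0.681) and LMNA (0.674) of 689 candidate probes. For CRABP2 on arrays labelled HCT116 they were PABPC1, CXADR and EPCAM, each at 0.996 of 1453 candidate probes. The arrays share normalization within a cell line, and these values carry no test.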

How the data were processed

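RNA of 24 samples was hybridized to Illumina HumanHT-12 V4 arrays. The deposited values are log2 levels, which the authors obtained in lumi by log2 transformation and Robust Spline Normalization (per the submitters' processing notes, version 2.8.0 for HL-60 and 2.6.0 for the other lines). Background correction is not given in the sources used here. The sorted values of a cell line's arrays differed by at most 0.0052, so a change in total RNA could not be seen. Arrays have no read depth, and 2 arrays per condition limit the precision. The 8 arrays of each cell line were fitted with limma 3.58.1 (R 4.3.3) as 4 condition means, leaving 4 residual degrees of freedom, and p values were adjusted over all probes. T24 and HL-60 responses were compared in a fit of 16 arrays. The 2 HL-60 probes with missing values were left out. Of 47231 probes, 30113 had 1 gene symbol, 8 had several and 17110 were not in the annotation used. Promoter windows came from RefSeq. On simulated data with independent noise, 200 probes shifted by 1.5 in the combination comparison were recovered in T24 and HCT116 and 199 in HL-60. False calls numbered 4 in T24, 6 in HL-60 and 4 in HCT116. That shift is larger than the tested changes of DHRS3 and RARA on arrays labelled T24 and HL-60. Recovery at those smaller sizes was not examined.

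All probes of the members were examined, and those above background are described. Of the other lists, up to 4 genes called in a comparison were named, others being marked as chosen after their values were seen, and the 3 genes most like the widest-ranging member. The members and lists were chosen with earlier results of these data known. The replicate numbers were checked for pairing by correlating deviations from the condition means. These correlations were -0.13 to 0.074 in T24, -0.11 to 0.26 in HL-60 and -0.042 to 0.23 in HCT116. Pairing was therefore not settled, and the main fit did not include it. Alternatives were stricter or adjusted p limits, a robust spread with a trend, other sets of arrays, a common median, 1 probe per gene, the replicate block and leaving out each array.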

Additional observations from a re-analysis of the deposited data

Results flagged for a closer look

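For RARA after clorgyline, the response differed between HL-60 and T24. The log2 difference from control was 0.30 in HL-60 and -0.36 in T24, and HL-60 minus T24 was 0.66 (SE 0.121, limma adjusted p = 0.0183). For ALDH1A3, HL-60 minus T24 was 2.04 and 2.29 with the combinatorial treatment by its 2 probes. It was 1.13 and 1.27 after 5-Aza-CdR, and 0.58 and 0.96 after clorgyline. These ALDH1A3 values are a description with no test, since the T24 values chose the gene group and the HL-60 group means were below the background limit, where a fall could not be measured.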

How the results depend on the processing

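No total over the alternatives is given, because it would count the values that chose the gene group. RARA on arrays labelled HCT116 changed sign depending on which control array was left out. Its log2 difference ranged from -0.29 to 0.34 after 5-Aza-CdR and from -0.32 to 0.31 after clorgyline. The control arrays enclosed all treated arrays, so which one was left out set the sign. Counts of called members leave out arrays labelled T24, where each call by the limits of the methods was an ALDH1A3 probe. For 5-Aza-CdR against clorgyline on HCT116 arrays, the count was 0 with 1 probe per gene, which drops a probe of ALDH1A3. It was also 0 at an adjusted p under 0.01 with a fold over 2. At an adjusted p under 0.05 it was 1 there with CRABP2 left out, and 1 for HL-60 5-Aza-CdR. By the limits of the methods, the HCT116 count was 2 with a robust spread, with all 24 arrays and with only the groups compared. It was 2 as well without both control arrays, an alternative chosen after seeing the data. With all 24 arrays, the difference in clorgyline response of RARA between HL-60 and T24 had a limma adjusted p of 0.117. Leaving out an array gave ALDH1A3 probe ILMN_1807439 log2 differences of 1.27 to 1.45 for HCT116 5-Aza-CdR against clorgyline. The replicate block ran over replicate numbers whose pairing was not settled (correlations of deviations -0.13 to 0.26). It left the HL-60 counts and that of HCT116 5-Aza-CdR against clorgyline unchanged. On arrays labelled T24 it gave RARA a limma adjusted p of 0.0682 for the combinatorial treatment against 5-Aza-CdR. Signal near background limits what could be seen for ALDH1A1, ALDH1A2, RARB and RARG.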

Other observations

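On arrays labelled HCT116, the order of 5-Aza-CdR and clorgyline was opposite to that on arrays labelled T24 for ALDH1A3 and TGM2. VIM, an intermediate filament gene, showed the same reversal. It was at 9.55 and 9.63 after 5-Aza-CdR and 11.65 and 11.90 after clorgyline on arrays labelled HCT116, and at 11.35 and 11.65 after 5-Aza-CdR and 9.91 and 9.93 after clorgyline on arrays labelled T24. VIM was chosen after its values were seen. Across probes, the 5-Aza-CdR arrays labelled HCT116 correlated with T24 clorgyline arrays at a median of 0.993 and with T24 5-Aza-CdR arrays at 0.982. The clorgyline arrays labelled HCT116 correlated with T24 clorgyline arrays at a median of 0.982 and with T24 5-Aza-CdR and combinatorial arrays at 0.988 each. The combinatorial arrays labelled HCT116 correlated with T24 combinatorial arrays at a median of 0.973, with T24 5-Aza-CdR arrays at 0.982 and with T24 clorgyline and control arrays at 0.99 each. The 5-Aza-CdR arrays labelled HCT116 correlated with T24 combinatorial arrays at 0.976 and with T24 control arrays at 0.987. The part of labelling in these values was not tested.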
